A study of Homo sapiens with 25 samples.

Results

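H3K4me1 peaks of 4 human lung adenocarcinoma cell lines were divided, within each line, into those that overlapped an H3K27ac peak of the same line by at least 1 bp and those that did not. The first are called acetylated H3K4me1 peaks and the second H3K4me1-only peaks. There were 426263 H3K4me1 peaks in the 4 lines, among 1257083 peaks in all 20 peak lists of the series. NCI-H2087 had 45863 acetylated and 45944 H3K4me1-only peaks, NCI-H358 43937 and 69668, NCI-H441 47424 and 51638, and HCC364 51435 and 70354.

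The peaks come from ChIP-seq, which sequences the DNA brought down with an antibody. The established lines were grown in RPMI medium with serum and left untreated, and the title of the series names the dosage of NKX2-1. Strings of 4 values below follow the order NCI-H2087, NCI-H358, NCI-H441, HCC364, called line order. H3K4me1, H3K27ac and NKX2-1 were profiled in all 4 lines, and 8 further antibodies in NCI-H2087 only. Each line and antibody was 1 library, so the line was the replicate (n = 4) and a difference between a pair of lines had no replicate check. The lowest local background of a library lay between 2.52 and 2.85 fragments in the 12 libraries of these 3 antibodies. Read depth itself was not compared. H3K27ac lay within 1 kb of the starts of NKX2-1, NAPSA, KRT7, EPCAM and CDH1 in 4 of 4 lines, and of none of the starts of PTPRC, PECAM1, CDH5, PDGFRB, INSM1, CHGA and KRT5. It also lay near CD3E and TP63 in 3 lines and near COL1A1 in 4. What these last peaks belong to was not tested.

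H3K4me1 is laid down at enhancers and on the flanks of promoters by the methyltransferases KMT2C and KMT2D. H3K27ac is written by the acetyltransferases EP300 and CREBBP, and enhancers that carry both marks are usually the active ones, while H3K4me1 without H3K27ac is found at enhancers that are primed, inactive or decommissioned. NKX2-1 is the homeodomain factor that specifies lung and thyroid epithelium and drives surfactant genes in alveolar type 2 cells, and it is retained in many lung adenocarcinomas.

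A gene start can be H3K4me1-only in 1 line and acetylated in another, and 4 such start windows are shown because the same bases carry both states. They are RefSeq windows on GRCh38.p14, from 250 bases before to 50 after an annotated start, printed 5′ to 3′ on the strand of the gene. Capitals mark CTTGAG, the reverse complement of CTCAAG, the core of the NKX2-1 recognition sequence, which was searched on both strands and found in the MRTFA window only. NAPSA encodes the aspartic protease napsin A of type 2 cells, MRTFA a coactivator of serum response factor, DST the cytolinker dystonin and PDE4D a cyclic AMP phosphodiesterase. All 4 windows lie inside the spans of their genes, at internal starts. A window does not give the state of the whole gene. Acetylated H3K4me1 lay within 1 kb of some start of NAPSA and of PDE4D in all 4 lines. At MRTFA and DST it did so in every line but NCI-H2087.
NAPSA, chr19:50365590-50365889, minus strand: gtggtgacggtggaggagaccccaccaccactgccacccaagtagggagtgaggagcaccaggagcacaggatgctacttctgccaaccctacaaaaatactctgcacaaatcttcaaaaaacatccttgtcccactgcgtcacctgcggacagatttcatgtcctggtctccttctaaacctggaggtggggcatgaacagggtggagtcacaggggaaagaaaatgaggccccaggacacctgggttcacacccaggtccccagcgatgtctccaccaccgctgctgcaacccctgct
MRTFA, chr22:40533778-40534077, minus strand: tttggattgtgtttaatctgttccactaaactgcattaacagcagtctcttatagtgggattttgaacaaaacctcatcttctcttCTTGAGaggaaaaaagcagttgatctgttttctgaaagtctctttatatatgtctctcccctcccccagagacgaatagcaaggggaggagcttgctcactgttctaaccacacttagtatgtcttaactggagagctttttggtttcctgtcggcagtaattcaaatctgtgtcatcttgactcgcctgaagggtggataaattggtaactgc
DST, chr6:56642840-56643139, minus strand: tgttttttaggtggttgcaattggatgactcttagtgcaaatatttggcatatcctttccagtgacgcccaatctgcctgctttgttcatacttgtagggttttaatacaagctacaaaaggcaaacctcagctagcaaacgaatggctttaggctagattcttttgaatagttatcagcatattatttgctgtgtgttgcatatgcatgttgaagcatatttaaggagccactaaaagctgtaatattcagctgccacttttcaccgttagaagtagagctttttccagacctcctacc
PDE4D, chr5:59356921-59357220, minus strand: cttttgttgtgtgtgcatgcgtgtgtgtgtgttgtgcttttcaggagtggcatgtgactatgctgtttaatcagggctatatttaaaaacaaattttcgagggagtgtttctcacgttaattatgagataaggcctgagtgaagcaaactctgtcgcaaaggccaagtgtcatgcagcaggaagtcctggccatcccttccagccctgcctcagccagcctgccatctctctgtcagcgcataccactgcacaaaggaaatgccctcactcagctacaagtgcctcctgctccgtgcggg

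At the NAPSA window the NCI-H358 H3K4me1 peak (fold 4.73 over local background, the authors' value) carried no H3K27ac, whereas the HCC364 window had H3K4me1 (8.57), H3K27ac (37.1) and NKX2-1 (7.20). H3K27ac without H3K4me1 covered it in NCI-H2087 (10.0) and NCI-H441 (48.7), with NKX2-1 in NCI-H441 (11.5). The MRTFA window had NKX2-1 in all 4 lines, with folds of 6.88, 14.5, 9.90 and 25.6 in line order, but H3K27ac within the window in HCC364 only (7.82). In NCI-H358 the H3K4me1 peak there met H3K27ac outside the window, and in NCI-H2087 and NCI-H441 it met none. The DST window carried H3K27ac in NCI-H358 (7.36) and HCC364 (5.09) and was H3K4me1-only in the other lines, with NKX2-1 in NCI-H358 only (7.51). At PDE4D, H3K27ac was present in NCI-H358 (12.4) and HCC364 (15.2) and NKX2-1 in NCI-H358 only (16.3), the NCI-H2087 window was H3K4me1-only, and NCI-H441 had no H3K4me1 there. So in these windows NKX2-1 could be present with or without the acetyl mark, and the acetyl mark without NKX2-1. CTCAAG on either strand was found in 11.3% of all 22132 windows, in 13.7 to 15.3% of windows under acetylated H3K4me1 peaks and in 13.6 to 15.5% of those under H3K4me1-only peaks. The median GC content of all windows was 62.3%, and it was 52.3 to 55.3% and 50.3 to 55.7% in those 2 classes.

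The first comparison asked how the acetylated and H3K4me1-only peaks differ in size and in NKX2-1 binding. The acetylated share of the H3K4me1 peaks was lowest in NCI-H358, at 38.7% (exact Clopper-Pearson 95% interval 38.4 to 39.0%), followed by HCC364 at 42.2% (42.0 to 42.5%), NCI-H441 at 47.9% (47.6 to 48.2%) and NCI-H2087 at 49.96% (49.6 to 50.3%). These intervals, here and below, cover counting error only. Acetylated peaks were the wider ones, with median widths of 1155, 1273, 1342.5 and 1337 bp against 570, 634, 662 and 605 bp, in line order. Their median H3K4me1 fold over local background was also above that of the H3K4me1-only peaks in each list, at 6.10 against 4.56, 6.83 against 5.03, 7.61 against 5.00 and 6.25 against 4.47.

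NKX2-1 peaks overlapped 67.8% of the acetylated and 37.5% of the H3K4me1-only peaks in NCI-H2087. HCC364 had 64.8% and 31.8%, NCI-H358 68.1% and 31.2%, and NCI-H441 74.6% and 52.0%. The acetylated class was higher in 4 of 4 lines, and the classes did not overlap across lines. The mean difference was 30.7 percentage points ± 6.02 (SD, n = 4 lines). Flipping the sign of each line's difference, an exact two-sided permutation test, gave p = 0.125 (n = 4 lines; 0.125 after Benjamini-Hochberg adjustment over 4 tests). No smaller p is possible with 4 lines, so this design cannot pass the usual threshold. Wide peaks meet more of any other list. Within quintiles of peak width the mean difference was 16.2 points, with the NKX2-1 summit required inside the H3K4me1 peak 14.6 points, with 500 bp windows on H3K4me1 summits 19.5 points, and among the 20000 strongest H3K4me1 peaks 12.4 points, higher in 4 of 4 lines each time.

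**Figure D1:**
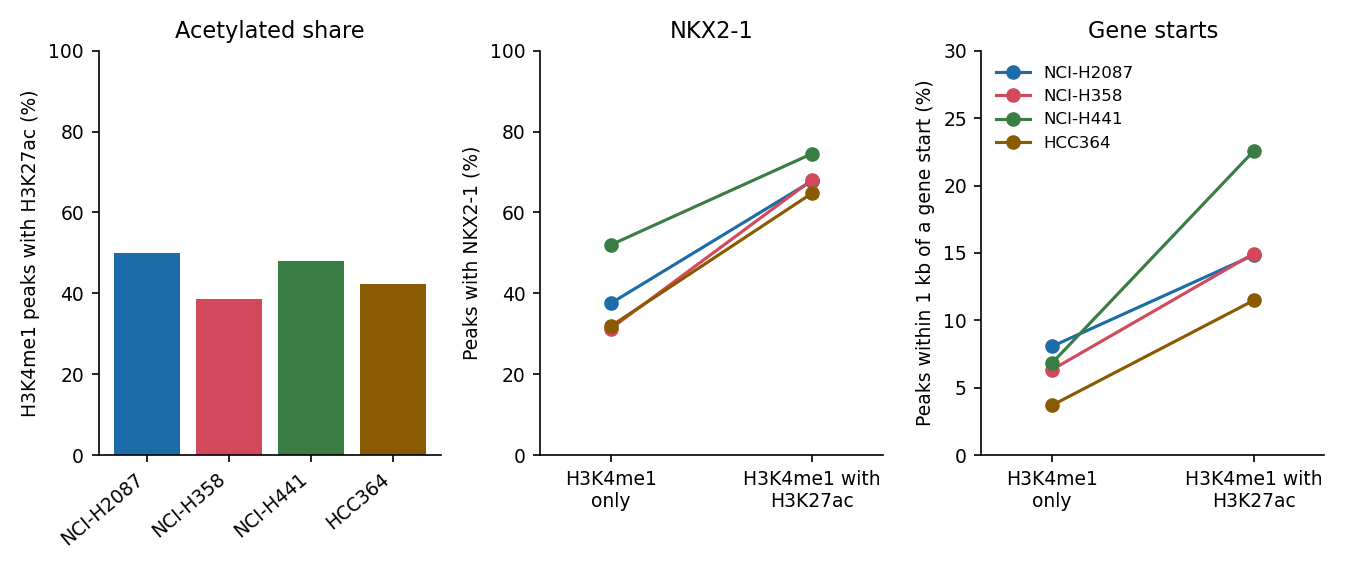
Left, share of H3K4me1 peaks that overlap H3K27ac in each line (bars, %); middle and right, share of H3K4me1-only and of acetylated H3K4me1 peaks that carry NKX2-1 or lie within 1 kb of a gene start (%; points are lines, joined within a line). Each line rises from the H3K4me1-only to the acetylated class in both measures, from 37.5% to 67.8% for NKX2-1 in NCI-H2087.

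The width quintiles show how far NKX2-1 separates the classes among peaks of like size. In the narrowest quintile of NCI-H2087 (254 to 413 bp), 36.1% of the acetylated and 23.8% of the H3K4me1-only peaks carried NKX2-1, and in the widest 86.1% and 67.4%. The smallest gap of the 20 combinations of line and quintile was in NCI-H441, 78.3% against 74.9% in the fourth quintile. Counted by base pairs, NKX2-1 peaks covered 23.6%, 23.8%, 29.1% and 17.5% of acetylated peak length in line order, and 16.8%, 14.03%, 23.7% and 13.1% of H3K4me1-only peak length. NKX2-1 peaks inside acetylated regions also had the higher median fold within their own list, 10.6 against 9.03, 9.19 against 7.71, 12.2 against 9.59 and 12.0 against 8.92. Read from the factor, 64.4%, 57.9%, 56.9% and 59.8% of NKX2-1-bound H3K4me1 peaks were acetylated in line order, against 33.9%, 22.6%, 32.7% and 27.4% of unbound ones. As means over the width quintiles these shares were 57.3%, 50.6%, 51.5% and 49.9% against 40.8%, 27.5%, 41.7% and 34.5%, so the gap was narrower in each line. A large part of the H3K4me1-only class was therefore bound: 17234, 21766, 26834 and 22399 peaks.

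The next comparison was the distance to genes. H3K4me1-only peaks lay farther from gene starts. The share within 1 kb of a protein-coding start was 14.8%, 14.9%, 22.6% and 11.5% for acetylated peaks in line order, and 8.06%, 6.33%, 6.82% and 3.69% for H3K4me1-only peaks. NCI-H441 had the widest gap. The acetylated class was higher in 4 of 4 lines, by 9.72 points ± 4.08 (SD, n = 4 lines; exact two-sided sign-flip p = 0.125, adjusted 0.125). The difference was 4.94 points among the 20000 strongest H3K4me1 peaks, 6.10 when at least 50% of a peak had to lie under H3K27ac, and 15.9 with the 20000 strongest H3K27ac peaks. Median distances to the nearest start were 20014, 22428, 16166.5 and 19504 bp for acetylated and 27283.5, 41044.5, 31695 and 37528.5 bp for H3K4me1-only peaks. By gene body the classes were close, with 56.2 to 60.9% of acetylated and 52.1 to 59.1% of H3K4me1-only peaks inside a protein-coding gene.

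Within each class the NKX2-1 share was higher far from gene starts than near them. In NCI-H2087 the NKX2-1 share of acetylated peaks was 36.0% within 1 kb of a start, 51.9% at 1 to 5 kb, 74.2% at 5 to 20 kb, 77.3% at 20 to 50 kb and 81.2% farther away. For its H3K4me1-only peaks the same steps gave 18.3%, 22.6%, 36.5%, 39.2% and 47.1%. NCI-H441 reached 90.1% of acetylated and 58.6% of H3K4me1-only peaks beyond 50 kb, from 38.7% and 27.5% within 1 kb. HCC364 did not rise over the first step, with 44.4% and 43.8% of acetylated and 23.6% and 21.1% of H3K4me1-only peaks within 1 kb and at 1 to 5 kb, and reached 77.5% and 37.4% beyond 50 kb. Over peaks more than 1 kb from any start, the NKX2-1 difference between the classes was 35.5 points.

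H3K4me1-only peaks were of more than 1 kind by their distance to acetylated chromatin. Their median distance to the nearest H3K27ac peak of their own line was 7191, 11172.5, 10068 and 10222 bp in line order. Between 12.9% (NCI-H441) and 20.3% (NCI-H2087) lay within 1 kb of one. Of these shoulder peaks, 24.7%, 24.5%, 29.6% and 11.97% were within 1 kb of a gene start, whereas at every greater distance the share was 0.978 to 4.27%. NKX2-1 went the other way. In NCI-H2087 its share rose from 25.5% of H3K4me1-only peaks within 1 kb of H3K27ac to 27.6% at 1 to 5 kb, 40.9% at 5 to 20 kb, 49.4% at 20 to 100 kb and 56.3% beyond 100 kb.

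The order was the same in the other lines. The shares ran from 21.4% to 43.2% in NCI-H358, from 37.6% to 65.5% in NCI-H441 and from 21.1% to 46.2% in HCC364. The median width of the peaks in these 20 classes lay between 504 and 723 bp, and in each line the farthest class was narrower than the one before it. Among H3K4me1-only peaks more than 5 kb from a gene start the steps in NCI-H2087 were 36.4%, 30.0%, 41.8%, 51.1% and 58.0%, so that the nearest class stood above the second, and the share then rose to the farthest class. The same shape held in NCI-H358 (30.2%, 23.1%, 32.4%, 38.9% and 43.7%), NCI-H441 (51.3%, 43.6%, 54.5%, 62.7% and 66.3%) and HCC364 (27.5%, 21.3%, 32.4%, 40.6% and 46.3%). These shares are a description of 4 lines, and no test was made of the trend.

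**Figure D2:**
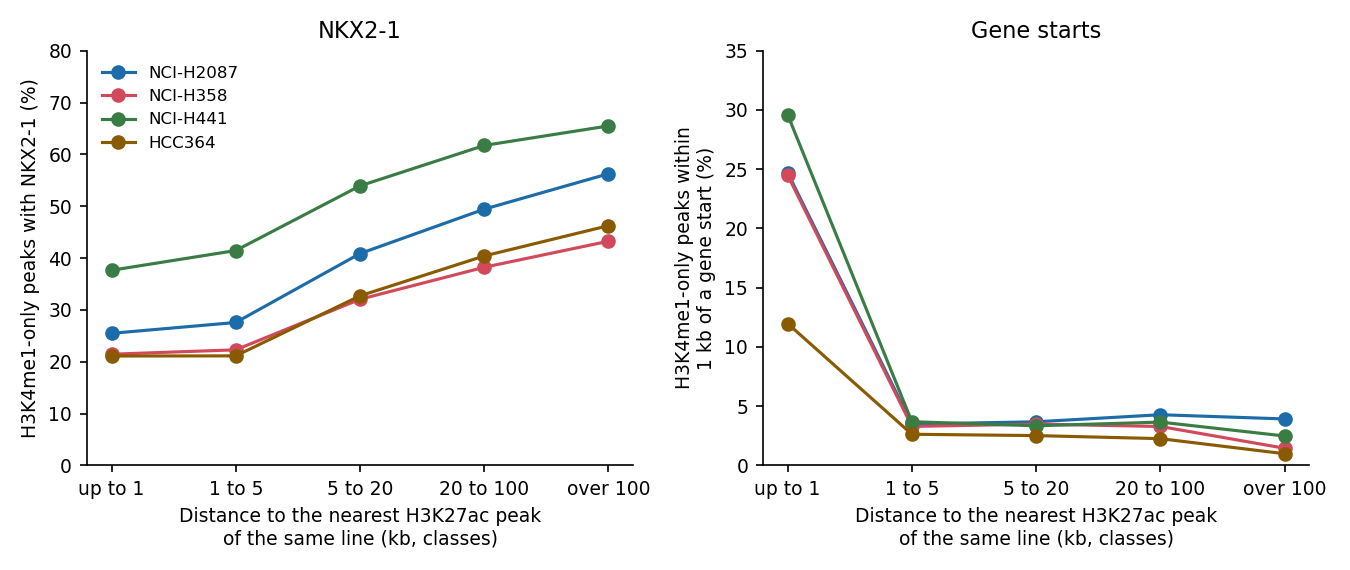
H3K4me1-only peaks of each line (colours) in 5 classes of distance to the nearest H3K27ac peak of the same line (kb, horizontal). The share with NKX2-1 (left, %) rises with distance in all 4 lines, from 25.5% to 56.3% in NCI-H2087, while the share within 1 kb of a gene start (right, %) is high only in the class up to 1 kb.

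In NCI-H2087 the other 8 antibodies show what else lay at the peaks. As a ratio of shares, RNA polymerase II separated the classes most, followed by EP300. RNA polymerase II overlapped 30.8% of acetylated peaks and 3.00% of H3K4me1-only peaks (interval 2.85 to 3.16%). The acetyltransferase EP300 overlapped 7.93% and 1.03%, and the AP-1 subunit c-Jun 34.6% and 9.30%. SOX2, an epithelial and stem cell factor, was at 11.4% and 4.58%, the promoter mark H3K4me3 at 29.4% and 12.9%, FOXA1 and FOXA2, forkhead factors that open chromatin, at 53.5% and 32.4% and at 56.8% and 37.5%, and the insulator protein CTCF at 14.8% and 10.8%. As ratios these were 10.3 for RNA polymerase II, 7.69 for EP300, 3.72 for c-Jun, 2.49 for SOX2, 2.29 for H3K4me3, 1.81 for NKX2-1, 1.65 for FOXA1, 1.51 for FOXA2 and 1.37 for CTCF. Each antibody was higher in the acetylated class in 5 of 5 width quintiles. Each is 1 library, without a test, and the EP300 and SOX2 lists held only 7406 and 9262 peaks, which limits the share they can reach.

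Away from gene starts the order was alike. Over 1 kb from any start RNA polymerase II lay at 27.6% of acetylated and 2.51% of H3K4me1-only peaks, and EP300 at 8.80% and 1.07%. H3K4me1-only peaks with no H3K27ac within 20 kb numbered 13228. Of these, 50.6% carried NKX2-1, 51.0% FOXA2, 45.1% FOXA1, 14.7% c-Jun and 7.40% SOX2, but 1.68% EP300 and 0.212% (28 peaks) RNA polymerase II. The shoulder peaks within 1 kb of H3K27ac had another make-up, with 45.6% H3K4me3 and 8.39% RNA polymerase II, 25.5% NKX2-1 and 23.1% FOXA2. At gene starts, H3K4me3 marked 87.1% of the acetylated and 74.7% of the H3K4me1-only peaks, while RNA polymerase II marked 49.4% and 8.59%. Of the NCI-H2087 shoulder peaks, 24.7% lay within 1 kb of a start, so the H3K4me1-only peaks at starts include peaks beside H3K27ac.

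**Figure D3:**
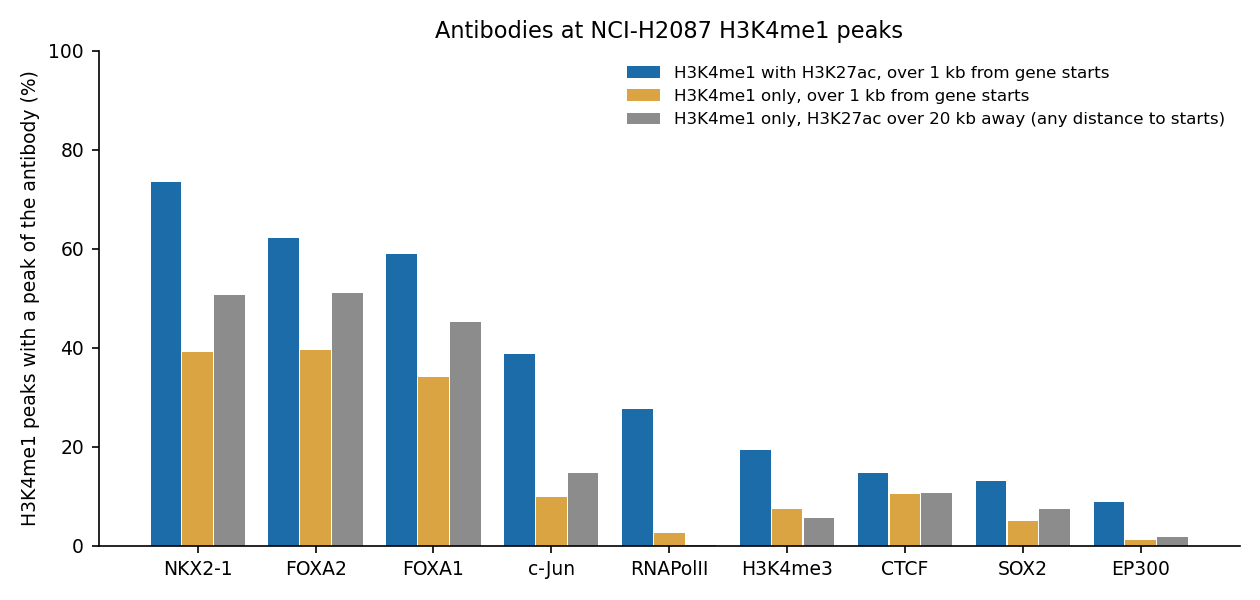
Share of NCI-H2087 H3K4me1 peaks (%) with a peak of each antibody, for acetylated and H3K4me1-only peaks over 1 kb from gene starts and for H3K4me1-only peaks with no H3K27ac within 20 kb. NKX2-1, FOXA1 and FOXA2 stay above 45% in the last class, where RNA polymerase II is at 0.212%.

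FOXA factors and NKX2-1 did not mark the classes alike. FOXA1 or FOXA2 without NKX2-1 lay at 9280 NCI-H2087 H3K4me1 peaks, of which 33.1% were acetylated (32.1 to 34.0%), against 34.2% (33.7 to 34.7%) of the 34182 peaks with neither. With NKX2-1 alone the share was 56.2% of 12466 peaks (55.3 to 57.0%), and with NKX2-1 and a FOXA factor 67.2% of 35879 peaks. In the middle width quintile the 4 shares were 30.3% with FOXA alone, 40.6% with neither, 54.9% with NKX2-1 alone and 59.2% with both. In the 2 narrowest quintiles NKX2-1 alone stood above both, at 31.6% against 29.7% and 46.5% against 44.4%. FOXA without NKX2-1 was below neither in each of the 5 quintiles. These groups were not matched by distance to gene starts. FOXA1 lay at 22.9% of acetylated and 12.5% of H3K4me1-only peaks within 1 kb of a start. Farther away it lay at 58.9% and 34.2%. Peaks with 0 of the factors NKX2-1, FOXA1, FOXA2, SOX2 and c-Jun were acetylated in 33.8% of cases, those with 3 in 57.4% and those with all 5 in 81.9%. These shares by number of factors were not matched by peak width. Among peaks with neither NKX2-1 nor a FOXA factor, 19.9% were acetylated in the narrowest quintile and 68.8% in the widest.

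The question of whether an H3K4me1-only region carries H3K27ac in another line was asked for all 12 ordered pairs. H3K27ac of at least 1 of the other 3 lines overlapped 37.4% of the H3K4me1-only peaks of NCI-H441 (36.9 to 37.8%), 35.02% of those of NCI-H2087 (34.6 to 35.5%), 29.0% of those of NCI-H358 (28.7 to 29.4%) and 22.1% of those of HCC364 (21.8 to 22.5%). The mean was 30.9% ± 6.80 (SD, n = 4 lines). It was 18.5% with the 20000 strongest H3K27ac peaks of each line. Acetylated H3K4me1 peaks were acetylated in another line far more often, in 87.8%, 84.5%, 90.5% and 70.0% of cases, higher in 4 of 4 lines. H3K27ac peaks cover 2.31 to 3.14% of the bases of the span analysed in a line. That is not a matched baseline, because a whole peak counts here if 1 bp meets H3K27ac in any of 3 lines. The share for peaks placed at random was not computed. For a single other line the share ran from 11.6% (HCC364 peaks acetylated in NCI-H441) to 22.7% (NCI-H441 peaks acetylated in HCC364). On average over the 12 pairs, 14.2% of the H3K4me1-only peaks had both H3K4me1 and H3K27ac in the other line, 1.304% H3K27ac without H3K4me1, 35.2% H3K4me1 only and 49.3% neither mark.

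H3K4me1-only peaks close to acetylated chromatin were the ones most often acetylated elsewhere. Within 1 kb of their own line's H3K27ac, 57.1%, 53.1%, 64.0% and 29.4% had H3K27ac in another line. Beyond 100 kb it was 29.1%, 14.7%, 29.6% and 20.5%. The gene start share moved with it. Of the NCI-H2087 H3K4me1-only peaks, 5.88% were within 1 kb of a start when no other line was acetylated and 21.6% when all 3 others were. In HCC364 the same shares were 3.30% and 5.61%.

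NKX2-1 of the acetylating line was more frequent at regions that are acetylated there. At the H3K4me1-only peaks of 1 line, the NKX2-1 peaks of the other line overlapped 56.5 to 80.4% where that other line was acetylated and 16.1 to 33.2% where it was not, over the 12 pairs. The peaks not acetylated in the other line are mixed. On average 49.3% of all H3K4me1-only peaks had neither mark there and 35.2% had H3K4me1 only. The comparison therefore does not separate acetylated from H3K4me1-only chromatin of the other line. Averaged per acetylating line, the shares were 66.6%, 64.2%, 74.9% and 60.5% where acetylated, in line order, and 21.8%, 21.8%, 26.9% and 22.6% where not. The difference was 43.3 points ± 4.29 (SD, n = 4 lines), higher in 4 of 4 lines, with an exact two-sided sign-flip p = 0.125 (adjusted 0.125). It was 21.1 points with the 20000 strongest NKX2-1 peaks, which lay at 27.3% of the acetylated regions, and 27.5 points with NKX2-1 summits inside the H3K4me1 peak, which lay in 41.5%.

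The same regions had less NKX2-1 in the line where they were H3K4me1-only. There 33.6 to 57.4% of them were bound, and the acetylating line was higher in 12 of 12 pairs, by 22.4 points ± 5.17 (SD over the 4 acetylating lines). The averages were 66.6% in NCI-H2087 as the acetylating line against 48.7% in the H3K4me1-only lines, 64.2% against 43.1% for NCI-H358, 74.9% against 45.1% for NCI-H441 and 60.5% against 39.8% for HCC364. When the line labels of the NKX2-1 libraries were permuted, the exact one-sided p was 0.0417 (n = 4 lines, 24 assignments, none of which can give less), or 0.125 after adjustment over 4 tests. The difference was 7.43 points among the 20000 strongest H3K4me1 peaks and 13.8 with NKX2-1 summits inside the peak. NKX2-1 bound in both lines was the most frequent state in 9 of the 12 pairs, at 31.1 to 51.8% of these regions over all pairs, and bound in neither in the other 3. It was bound in the acetylating line alone at 14.2 to 35.2% and in the H3K4me1-only line alone at 1.33 to 5.55%. Neither line was bound at 18.3 to 41.0%.

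**Figure D4:**
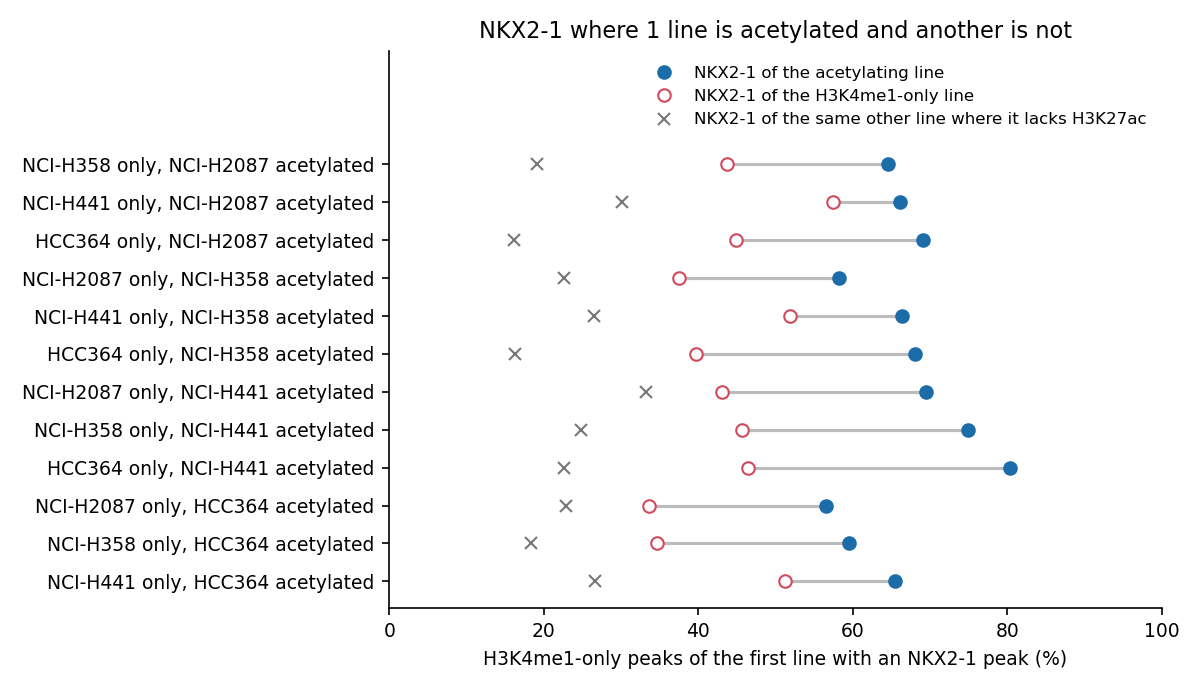
H3K4me1-only peaks of a first line, for 12 ordered pairs of lines, by the share with an NKX2-1 peak (%): filled points, NKX2-1 of the other line where that line is acetylated; open points, NKX2-1 of the first line at the same peaks; crosses, NKX2-1 of the other line where it is not acetylated. The filled point lies right of the open point in 12 of 12 pairs, and the crosses lie between 16.1 and 33.2%.

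NKX2-1 in the H3K4me1-only line itself did not always separate regions acetylated elsewhere. In NCI-H2087 its own NKX2-1 lay at 37.5% of the H3K4me1-only peaks whether or not at least 1 other line was acetylated. By number, the share was 37.5% with no other line acetylated, 37.3% with 1, 39.7% with 2 and 32.8% with 3. In HCC364 the share was 28.9% with no other line acetylated, 39.3% with 1, 44.2% with 2 and 47.3% with 3, and in NCI-H358 it went from 28.4% to 47.5%. NCI-H441 moved from 51.3% to 53.5%. In NCI-H2087, H3K4me1-only peaks acetylated elsewhere had less FOXA2 (33.7% against 39.5%), FOXA1 (29.6% against 33.9%) and SOX2 (3.09% against 5.39%) than the others, and more c-Jun (11.3% against 8.23%), RNA polymerase II (5.39% against 1.71%) and H3K4me3 (21.6% against 8.18%).

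Merging the H3K4me1 peaks of the 4 lines gave 174263 regions, of which 36897 had H3K4me1 in all 4 lines. A line counted as acetylated here if any of its H3K27ac peaks met the merged region, even outside its own H3K4me1 peak. By the number of lines with H3K27ac these fell into 4196 regions with none, 4146 with 1, 4361 with 2, 6476 with 3 and 17718 with 4. The mean NKX2-1 share over the lines was 59.1% ± 6.09 (SD, n = 4 lines), 64.5% ± 4.84, 70.8% ± 4.62, 77.2% ± 4.41 and 76.1% ± 2.23 in these steps. The share near a gene start was 4.89%, 8.42%, 12.0%, 15.97% and 30.5%, and the median width of the merged regions grew from 1708.5 to 2890 bp. Where H3K27ac was present in 1 line only, NKX2-1 of that line was at 82.3% of 1105, 80.1% of 759, 90.0% of 611 and 79.6% of 1671 regions in line order. The mean of the other 3 lines at the same regions was 63.2%, 55.3%, 60.0% and 56.9%. In the mirror case, H3K4me1-only in 1 line and acetylated in the other 3, NKX2-1 of the H3K4me1-only line was at 49.8%, 56.9%, 69.4% and 60.3%, and the mean of the others was 74.2%, 82.0%, 78.5% and 90.3%. In this mirror set the widest gap was in HCC364, at 2269 regions, and the narrowest in NCI-H441, at 1178.

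For the merged regions the NCI-H2087 factors could be read as well. At the 1105 regions acetylated in NCI-H2087 alone, FOXA2 lay at 73.7%, FOXA1 at 70.8%, c-Jun at 41.4%, SOX2 at 19.4% and EP300 at 9.23%. At the 927 regions where only NCI-H2087 lacked H3K27ac the values were 41.6%, 37.3%, 19.1%, 3.78% and 1.51%. RNA polymerase II did not follow, with 4.89% and 10.2%, and H3K4me3 was at 6.97% and 34.2%. The 2 sets differ in position, with 5.34% of the first and 22.7% of the second within 1 kb of a gene start. They were not matched for this. At the 4196 regions acetylated in no line FOXA2 was at 59.3%, FOXA1 at 54.5% and RNA polymerase II at 1.43%.

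Peaks were next related to genes. Each was given to the protein-coding gene with the nearest start within 50 kb, on hg38 (GRCh38). Genes with the most H3K4me1-only peaks and no acetylated one were counted per line. In NCI-H2087 they included LOC107984142 (14 peaks), the fucosyltransferase gene FUT8 (12), PRR5L (11), and the ephrin gene EFNA3 (9). FUT8 (chromosome 14, 65356842 to 65744121) had 6, 10 and 1 acetylated peaks in the other lines. In NCI-H358 they included FNIP2 and STOX2 (14 peaks each), the receptor gene ROR1 (13) and ATL2 (12). Of the NCI-H358 peaks at FNIP2, 13 of 14 overlapped H3K27ac of another line, and the gene had 13 acetylated peaks in NCI-H2087, 7 in NCI-H441 and 11 in HCC364.

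In NCI-H441 the leading genes were HIVEP3 (13 H3K4me1-only peaks), the matricellular gene CCN5 (11), BTBD9 (10), and the elongation factor gene AFF4 and the aldo-keto reductase gene AKR1C3 (9 each). BTBD9 had no acetylated peak in any line, with 7, 5, 10 and 4 H3K4me1-only peaks in line order. HIVEP3 had 5, 4 and 11 acetylated peaks in the other lines. In HCC364 the genes were KTN1 (15), MCC (13), and PPM1H, RMDN2 and TRIQK (12 each). KTN1 had 4, 3 and 4 acetylated peaks in the other 3 lines.

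The genes with the most acetylated H3K4me1 peaks were counted next. SMAD3, a transducer of TGF-beta signals (chromosome 15, 67065602 to 67195169), had 31, 18, 24 and 19 acetylated and 0, 7, 4 and 3 H3K4me1-only peaks in line order. SEPTIN9, a filament-forming GTPase (chromosome 17, 77281499 to 77500596), had 45 and 9 in HCC364 against 16 and 5, 25 and 23, and 22 and 22 in the other lines in order. RHOU, a small GTPase, stood apart in NCI-H358, with 26 acetylated and 2 H3K4me1-only peaks against 1 and 2 in NCI-H2087, 1 and 2 in NCI-H441 and 2 and 5 in HCC364. NRP1, a co-receptor for semaphorins and VEGF, had 33 acetylated peaks in HCC364 and 15 to 20 elsewhere, and of its H3K4me1-only peaks 17 of 19 in NCI-H358, 12 of 15 in NCI-H2087 and 10 of 15 in NCI-H441 overlapped H3K27ac of another line. The transcription factor gene FOXP1 (17, 24, 25 and 31 acetylated peaks), the cytoskeletal linker gene MACF1 (25, 19, 21 and 29), BCAR3 (23, 23, 21 and 25), DNMBP, SMURF2, SPRED2, CAST, LIMA1 and SH3KBP1 completed these groups. The choice was by these counts, which are therefore a description, and long genes hold more peaks.

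Genes whose regions changed state between lines were led in HCC364 by MRTFA. It had 24 acetylated and 20 H3K4me1-only peaks in HCC364, and 4 and 13, 5 and 19, and 10 and 15 in the other lines in order. Of the H3K4me1-only peaks of those 3 lines, 10, 14 and 13 overlapped H3K27ac of another line. HMGA2, an architectural chromatin protein, had 23 acetylated peaks in HCC364, 15 in NCI-H2087, 8 in NCI-H441 and 3 in NCI-H358. The ubiquitin ligase gene NEDD4L, SEPTIN9 and SVIL were the others in that line. In NCI-H2087 the group held CDKL1 (8 acetylated peaks against 2 in each other line), DST (23 against 15 to 18), AKAP6 (8 against 0 to 3), ARID5B and the protease gene CTSC (11 against 3 to 6). In NCI-H358 it held GCNT1 (21 acetylated against 9 or 10), PDE4D (16 against 7 to 11), the guanine nucleotide exchange factor gene RAPGEF4 (13 against 2 to 5), AFAP1 and CDYL. In NCI-H441 NEDD4L, ELF1, TRIM2, ARID5B and ANKRD46 were named. ELF1 had 18 acetylated peaks there, 13 in NCI-H358, 20 in NCI-H2087 and 6 in HCC364, where 13 of its 14 H3K4me1-only peaks overlapped H3K27ac of another line.

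Regions with the strongest H3K27ac in 1 line and H3K4me1 without H3K27ac in another were taken from outside the 5 kb around the second line's own H3K27ac. Each fold is that of the strongest peak touching the region, and that peak can be far wider than the region. One lies 119 bp from a start of CLDN7, the tight junction gene claudin 7 (chromosome 17, 7263332 to 7264052, just outside the gene span of 7259903 to 7263213). There H3K27ac had a fold of 83.2 in NCI-H441, 79.3 in NCI-H358 and 51.0 in NCI-H2087, and NKX2-1 was bound in the same 3 lines (9.54, 5.64 and 7.90). HCC364 had H3K4me1 (5.50) but neither H3K27ac nor NKX2-1. In NCI-H2087 this region also held RNA polymerase II (117) and H3K4me3 (225). A region 23906 bp from the nearest start, that of the cell polarity gene LLGL2 (chromosome 17, 75548908 to 75550144), showed the same pattern, with H3K4me1 in all 4 lines, and H3K27ac (18.3, 115 and 18.3) and NKX2-1 (8.04, 14.1 and 4.93) in NCI-H2087, NCI-H358 and NCI-H441, and neither in HCC364. The TMEM106B region (chromosome 7, 12065942 to 12066481) also had H3K27ac (55.3, 46.7 and 65.9) and NKX2-1 (11.8, 12.8 and 12.7) in those 3 lines and neither in HCC364, and in NCI-H2087 it held FOXA1 (36.2), FOXA2 (30.2), c-Jun (32.4) and EP300 (7.67). Its nearest start is 144813 bp away.

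In other regions of this set NKX2-1 followed H3K27ac in some lines only, or not at all. At TEAD3, a partner of YAP (chromosome 6, 35485222 to 35485797), H3K27ac was present in NCI-H2087 (39.7), NCI-H358 (91.4) and NCI-H441 (47.2) and NKX2-1 in NCI-H358 and NCI-H441 only. At HNRNPDL (chromosome 4, 82403177 to 82404441) H3K27ac was in NCI-H2087 alone (57.2) and NKX2-1 in HCC364 alone (6.58). The NCI-H2087 H3K27ac peak there spans 82393705 to 82403504, so it meets only the edge of the region. Near FGFR1, H3K4me1 and NKX2-1 were present in 4 of 4 lines and H3K27ac was missing only in NCI-H358. The SPNS3 region (chromosome 17, 4483127 to 4483653) carried H3K27ac in NCI-H2087 (55.2), NCI-H441 (14.8) and HCC364 (6.70), NKX2-1 in the first 2 of these, and neither in NCI-H358. The ANXA8L1 region had H3K27ac in HCC364 only (49.9), with NKX2-1 in HCC364 and NCI-H441. HS3ST1, MKLN1, SLC45A1 and FAM83A had no NKX2-1 peak in any line at the region chosen. At these genes and at HNRNPDL the region lay at or near an end of a far wider H3K27ac peak. The H3K4me1-only line had its own H3K27ac 5.08 to 11.4 kb away from these regions. Whether they are edges of acetylated stretches present in both lines was not tested. By NKX2-1 the 12 regions divide into 5 (TMEM106B, SPNS3, LLGL2, TEAD3 and CLDN7) with NKX2-1 in the acetylating line and not in the H3K4me1-only line, 2 (FGFR1 and ANXA8L1) with it in both, 1 (HNRNPDL) with it in the H3K4me1-only line alone and 4 with it in neither.

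Gene lists of lung cell types, other lineages and pathways were read at gene starts and within 50 kb. Some members are named below after their values were seen, besides those the naming rule gives. Over all 19974 protein-coding genes, an acetylated H3K4me1 peak lay within 1 kb of the start of 5841 (29.2%), 5697 (28.5%), 8453 (42.3%) and 5128 genes (25.7%) in line order. Starts with H3K4me1-only peaks and no acetylated one numbered 2572 (12.9%), 3038 (15.2%), 2053 (10.3%) and 1866 (9.34%). Across lines, 3682 starts (18.4%) were acetylated with H3K4me1 in at least 1 line and H3K4me1-only in another, 2528 (12.7%) were H3K4me1-only in at least 1 line and acetylated with H3K4me1 in none, and 2324 (11.6%) were acetylated with H3K4me1 in all 4. H3K27ac of any kind lay within 1 kb of 11591, 11409, 11230 and 11719 starts, so many starts with H3K27ac had no acetylated H3K4me1 peak there. Acetylated shares within 50 kb are counted gene by gene, here and for the lists below. A peak near several starts therefore counts for each gene, which gives more weight to gene-dense regions. Over all genes this share was 52.9% ± 4.03 (SD, n = 4 lines).

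Simple epithelial keratins and junction genes had 61.3% ± 3.52 (SD, n = 4 lines) of their nearby H3K4me1 peaks acetylated, and 9, 6, 13 and 6 of the 14 starts had an acetylated H3K4me1 peak. H3K27ac of any kind lay at 14 of 14 starts in the first 3 lines and at 11 in HCC364. Over all 19974 genes it lay at 11591, 11409, 11230 and 11719 starts in line order. The 3 exceptions, singled out after their values were seen, were CLDN7, ESRP1, a splicing regulator of epithelial cells, and GRHL2, a factor of epithelial identity. ESRP1 and GRHL2 lie on chromosome 8, where either annotated gene end was read as a start. CLDN7 had 14, 6, 15 and 2 acetylated and 6, 2, 0 and 9 H3K4me1-only peaks within 50 kb in the 4 lines, ESRP1 4, 9, 4 and 0 and 4, 3, 8 and 7, and GRHL2 10, 10, 10 and 5 and 10, 12, 11 and 11. So HCC364 was the lowest of the lines in acetylated peaks at each of them and still carried H3K4me1. CDH1 was not of this kind, with 11, 13, 14 and 17 acetylated peaks, and KRT7 had 13, 11, 10 and 13. Among the 12 mesenchymal genes, 4, 6, 5 and 7 starts had H3K27ac, to be read beside the counts over all genes above. CDH2 (N-cadherin) had 6 acetylated and 11 H3K4me1-only peaks in HCC364, with no acetylated peak in the other lines and 0, 5 and 0 H3K4me1-only ones. It was singled out after its values were seen, and other members differed: SNAI2 had 6, 5, 3 and 6 acetylated peaks, and ZEB2, TWIST1 and COL1A2 had 0 in all lines. The acetylated share over the mesenchymal list was 60.0%, 35.8%, 55.1% and 43.1% in line order, so HCC364 was below NCI-H2087 and NCI-H441.

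Alveolar type 2 genes differed between lines. Of their 15 starts, 7, 4, 7 and 5 had an acetylated H3K4me1 peak, 1, 2, 4 and 3 an H3K4me1-only one, and 5 genes had the first in at least 1 line and the second in another. SFTPB, the gene for surfactant protein B (chromosome 2, 85657307 to 85668741), had 6 acetylated and 7 H3K4me1-only peaks within 50 kb in NCI-H2087, 9 and 5 in NCI-H441 and 11 and 4 in HCC364, but 1 and 7 in NCI-H358, where its start had no H3K27ac. SFTPA1, for surfactant protein A, had 5 and 5 in NCI-H2087 and 7 and 3 in NCI-H441, but 0 and 1 in NCI-H358 and 0 and 3 in HCC364, where its start was H3K4me1-only. SFTPC, for surfactant protein C, had 2 and 2, 9 and 11, 9 and 2, and 15 and 5. NAPSA had 4 and 0, 6 and 3, 9 and 5, and 11 and 3. The lipid transporter gene ABCA3 (1, 0, 0 and 1 acetylated, 3, 6, 5 and 6 H3K4me1-only) and SFTPD (0, 0, 0 and 1 against 7, 2, 4 and 3) were mostly H3K4me1-only, as, outside NCI-H358, was LAMP3, a lysosomal protein of type 2 cells (3, 6, 4 and 3 against 9, 4, 10 and 8). LPCAT1, an enzyme of surfactant lipid synthesis, stood at the other end with 11, 9, 13 and 23 acetylated and 1, 8, 2 and 1 H3K4me1-only peaks. Over the list the acetylated share was 55.5% ± 6.93 (SD, n = 4 lines), close to that of all genes.

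The alveolar type 1 list was at 51.1% ± 7.71. HOPX, a homeodomain-only regulator, had 15, 11, 12 and 9 acetylated and 12, 12, 8 and 18 H3K4me1-only peaks, and CLIC5 had 4 acetylated and 23 H3K4me1-only peaks in NCI-H358. PDPN had no H3K4me1 peak within 50 kb in any line. Airway secretory genes stood lower, at 34.5% ± 2.82. SPDEF, a factor of goblet cells, had 1, 0, 1 and 4 acetylated and 6, 9, 7 and 11 H3K4me1-only peaks, and the club cell gene SCGB1A1 1, 2, 0 and 3 against 3, 5, 3 and 7. AGR2 had 8, 7, 4 and 3 acetylated peaks and 6, 4, 8 and 11 H3K4me1-only ones. Ciliated cell genes were at 42.2% ± 7.61, and 7, 4, 3 and 5 of their 10 starts were H3K4me1-only, beside 12.9%, 15.2%, 10.3% and 9.34% of all starts. FOXJ1, the master factor of motile cilia, had an H3K4me1-only start in NCI-H2087, NCI-H441 and HCC364, and in NCI-H358 an acetylated H3K4me1 peak at the start, although no line had an H3K27ac peak within 1 kb of it. MCIDAS, a factor of multiciliated cells, had 10 H3K4me1-only peaks and 1 acetylated peak in NCI-H2087. These lists are short, and no test was made against other genes.

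Neuronal and early developmental regulators had the lowest acetylated share, 22.9% ± 8.31 (SD, n = 4 lines), and few H3K4me1 peaks at all. The 16 genes had a median of 1.88 H3K4me1-only and 0.250 acetylated peaks within 50 kb, where the medians over all genes were 3.00 and 2.75, and 0 of the 16 starts had an acetylated H3K4me1 peak in any line. NKX2-2 had 5 H3K4me1-only peaks in NCI-H2087 and EVX1 had 6, with 0 acetylated. OLIG2 was among the members with acetylated peaks, at 3, 0, 2 and 4. HOX genes were at 31.5% ± 13.7, with 47.6% in NCI-H2087 and 15.7% in NCI-H358, and neighbours in a cluster share peaks. HOXB7, HOXB8 and HOXB9 each had 5 acetylated peaks and 1 H3K4me1-only peak in NCI-H2087 and none of either in NCI-H358. HOXC8 and HOXC10 each had 2 acetylated and 9 H3K4me1-only peaks in NCI-H2087, and 0 acetylated peaks in the other lines.

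**Figure D5:**
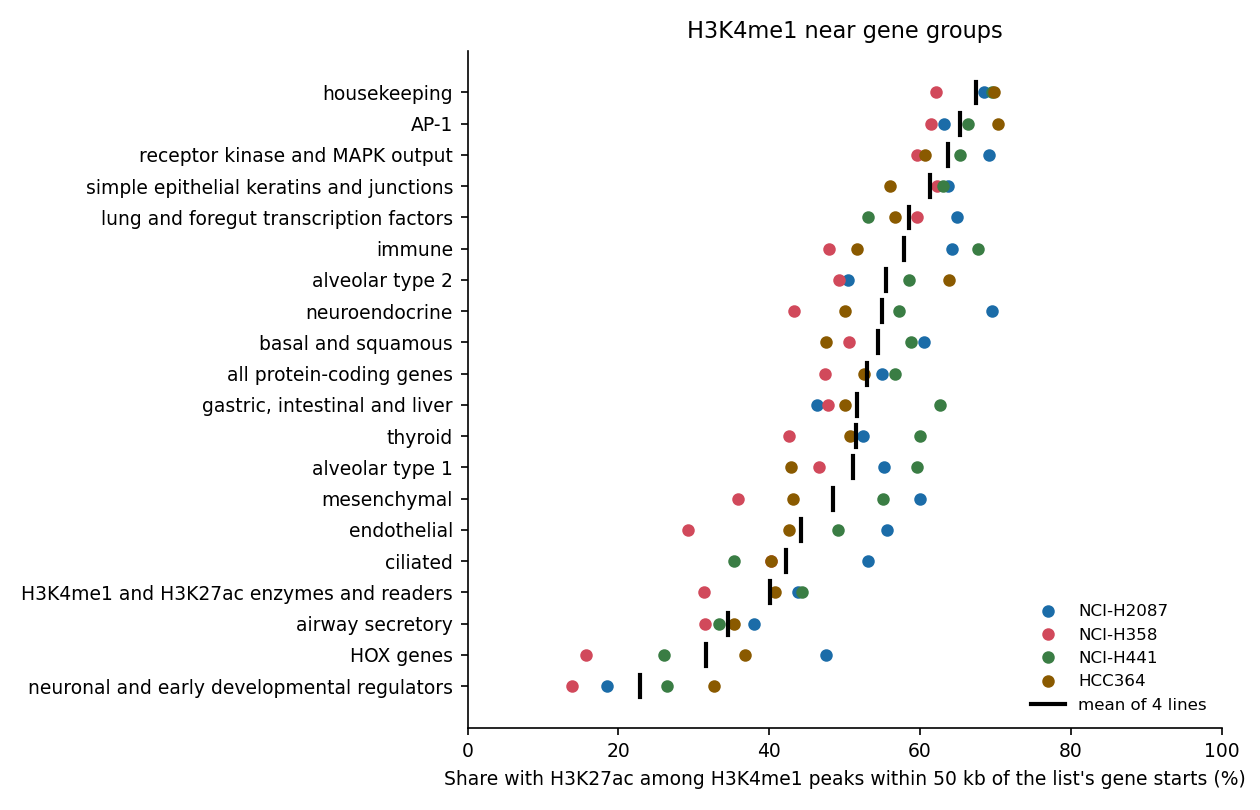
Share of H3K4me1 peaks with H3K27ac within 50 kb of the starts of each gene list (%; points, lines; vertical bar, mean of 4 lines), from the lowest to the highest mean. Peaks are counted gene by gene, so a peak near several starts counts for each gene. Developmental regulators (mean 22.9%) and HOX genes (31.5%) lie below all protein-coding genes (52.9%), and housekeeping genes (67.5%) and AP-1 genes (65.3%) above.

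Housekeeping genes (67.5% ± 3.65), AP-1 genes (65.3% ± 3.89) and receptor kinase and MAPK output genes (63.7% ± 4.40) had the highest acetylated shares. FOSL1, an AP-1 subunit, had 10, 11, 12 and 12 acetylated and 0, 3, 6 and 1 H3K4me1-only peaks. ERRFI1, an inhibitor of the EGF receptor, had 20, 19, 15 and 14 against 2, 3, 1 and 6, and MET, the hepatocyte growth factor receptor, 12, 15, 6 and 11 against 1, 4, 3 and 3. EGFR had 24, 10, 17 and 24 acetylated and 9, 15, 11 and 5 H3K4me1-only peaks, so that NCI-H358 was the line with fewer acetylated than H3K4me1-only peaks. Genes of the enzymes and readers of the marks were at 40.1% ± 6.01, though 12 of 12 starts had H3K27ac in each line. Over all 19974 genes, 11230 to 11719 starts had it. CREBBP had 1, 0, 2 and 0 acetylated against 6, 5, 3 and 5 H3K4me1-only peaks.

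Lung and foregut transcription factors were at 58.6% ± 5.00. NKX2-1 itself (chromosome 14, 36516397 to 36520232) had 5, 6, 10 and 6 acetylated and 3, 8, 3 and 1 H3K4me1-only peaks within 50 kb, and H3K27ac but no H3K4me1 peak at its start in all 4 lines. FOXA2 (chromosome 20, 22580998 to 22585490) had 6 acetylated and 2 H3K4me1-only peaks in NCI-H2087 and 6 and 6 in HCC364, but 0 and 3 in NCI-H358 and 0 and 0 in NCI-H441. FOXA1 had 4, 4, 6 and 1 acetylated and 5, 7, 5 and 4 H3K4me1-only peaks, SOX2 6, 1, 6 and 1 against 5, 6, 6 and 4, and ELF3, an epithelial ETS factor, 19, 23, 16 and 9 against 1, 3, 4 and 6. TP63, the basal cell factor, had an acetylated H3K4me1 peak at a start in NCI-H358 and NCI-H441 and H3K4me1-only starts in NCI-H2087 and HCC364, the last with H3K27ac elsewhere within 1 kb of the start. HNF4A, a hepatic and gastrointestinal regulator, had at most 2 peaks of either class in a line. The other lists, basal and squamous (54.4%), neuroendocrine (54.99%), immune (57.9%), endothelial (44.2%), mesenchymal (48.5%), thyroid (51.4%) and gastric, intestinal and liver genes (51.7%), had shares that spread over the lines by 6.29 to 11.3 points (SD, n = 4 lines).

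Regions constant in all 4 lines gave a last contrast. H3K4me1-only in every line were 5 regions each at AKAP9, COL21A1 and the scaffold gene DLG1, and 4 each at ANK2, ARHGAP17, DISC1, DNASE2B and ERP44. Acetylated in every line were 14 regions at FOXP1, 13 at MACF1, 12 at the RNA-binding protein gene RBM47, and 11 each at BCAS1, HRH1 and SEPTIN9. By chromosome, the gene-rich chromosome 19 had the highest acetylated share of H3K4me1 peaks, 59.2%, 53.0%, 60.8% and 65.2% in line order. The lowest was 33.1% in NCI-H358, on chromosome 4, and 31.7% in HCC364, on chromosome 13.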

How the data were processed

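The members, gene lists and tests were chosen with earlier results of these data known. MACS2 2.1.1 and 2.2.7.1, bedtools, SAMtools 1.9, Bowtie2 2.2.9 and Trimmomatic 0.36 are the tools, and hg38 (GRCh38) the build, per the submitters' processing notes, which as used here give no role for each. The deposited files are narrowPeak lists, 1 per library, for 20 of 25 samples, and the 5 inputs are not analysed here. Per the layout of the deposited lists, column 7 is a linear ratio (fold over local background) and columns 8 and 9 are −log10 p and −log10 q, all the authors' values. The lowest −log10 q of the 12 lists was just above 3.

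Peaks on chromosomes 1 to 22 and X were used. Peaks overlapped from 1 bp. The local background was solved from fold and −log10 p, which reproduced 95.6 to 100% of peaks within 0.01. Starts came from the RefSeq promoter table (15812 of 19974 genes). Both gene ends stood in for the other 4162, among them all genes on chromosome 8. No exon annotation was used. Named genes were, per line, the 5 with most H3K4me1-only peaks and no acetylated one, the 5 with most acetylated peaks, the 5 with most regions acetylated there and H3K4me1-only elsewhere, the 3 such regions with the highest H3K27ac fold and no H3K27ac of the second line within 5 kb, the 2 leading members of each list by each class, and 13 fixed loci; other list members were named after their values were seen. Some genes that the rule gives are not reported here. Differences were tested by exact permutation over lines (smallest p 0.125 or 0.0417). Interval code was tested on simulated peaks. Python 3.11.15, NumPy 2.4.6, pandas 2.3.3, SciPy 1.17.1 and Matplotlib 3.10.9 were used.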

Additional observations from a re-analysis of the deposited data

How the results depend on the processing

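In every line, the 4 tested differences kept their direction under all alternatives run: 15 for NKX2-1 between classes, 13 for gene starts, and 14 for each of the NKX2-1 differences that involve an acetylating line. The share of H3K4me1-only peaks acetylated in another line was 23.7% when at least 50% of a peak had to lie under H3K27ac, 18.5% with the 20000 strongest H3K27ac peaks and 45.8% with the 20000 strongest H3K4me1 peaks, and 22.4 to 26.3% with 1 line left out, which leaves fewer other lines. The NKX2-1 difference between the acetylating and the H3K4me1-only line was 20.1 to 24.2 points with 1 line left out, with an exact permutation p = 0.167 (n = 3 lines, which can give no less). With 1 line left out the NKX2-1 difference between classes was 28.6 to 33.4 points, the gene start difference 7.72 to 10.7 points and the NKX2-1 difference of the acetylating line 40.5 to 46.6 points. Chosen after seeing the data, leaving out H3K4me1-only peaks within 5 kb of their line's H3K27ac gave 24.2 points for NKX2-1 between classes, 52.6 and 25.96 points for the 2 differences between lines and 26.2% acetylated elsewhere, and using only genes with an annotated start gave 8.28 points. No replicate block could be fitted because each line and antibody was 1 library; the tested differences are already taken within a line or a pair of lines. Depth and the peak threshold limit every share: a missing peak is not a missing mark.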
